A study of Homo sapiens with 9 samples.

Results

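The 10 genes described here encode proteins that the ERK pathway makes more of when it is active: the dual-specificity phosphatases *DUSP1*, *DUSP4*, *DUSP5* and *DUSP6*, the inhibitors *SPRY2*, *SPRY4* and *SPRED1*, the ETS transcription factors *ETV4* and *ETV5*, and *PHLDA1*. They were chosen by gene symbol, with earlier results of these data known, so counts set beside all genes are descriptions. They are 10 of 27902 genes with a RefSeq entry in the tables. RNA-seq was done on DU145, an established human prostate cancer cell line that the labels call WT in every sample. The 9 libraries are 3 of cells with a scrambled shRNA (scramble), 3 of cells with shRNA FZD6 #1 (shRNA1) and 3 of cells with shRNA FZD6 #2 (shRNA2), each group called a triplicate. The study set the *FZD6* hairpins against the scrambled hairpin to find what loss of the Wnt receptor *FZD6* does to gene expression. All 9 libraries carry a lentiviral hairpin vector, so uninfected DU145 cells are not part of the comparison, and 1 cell line is all that the values stand for. The labels do not say whether the triplicates are separate infections or cultures, so p-values here measure the spread between these libraries, which may be technical.

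In the ERK pathway, receptors at the cell surface switch on the small GTPase RAS, which starts a relay of kinases from RAF through MEK to ERK. Active ERK turns on genes whose products switch it off again: phosphatases that remove the activating phosphates, and Sprouty and SPRED proteins that act on the way from receptor to RAS and RAF. The RNA level of such genes is widely used as a readout of pathway output. Several of them, though, also respond to stress, to p38 and JNK kinases and to other signals, and RNA-seq does not measure phosphorylated protein. The study assayed proteins of DU145 cells separately, by protein array and western blot. It reported lower activity of SRC, STAT3 and AKT1 and lower phosphorylation of S6K with *FZD6* knockdown. Those protein data are not used here.

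The promoter sequences below are shown because members of this set are known for elements that signal-dependent factors bind. Sequences from 250 bases before to 50 bases after the gene's start were present in the RefSeq table (GRCh38.p14) for 6 of the 10 genes, *DUSP1*, *DUSP6*, *PHLDA1*, *SPRED1*, *SPRY2* and *SPRY4*. Capitals mark the motif in each window, which is written 5′ to 3′ on the gene's own strand.
DUSP1 (minus strand, chr5:172771287-172771346): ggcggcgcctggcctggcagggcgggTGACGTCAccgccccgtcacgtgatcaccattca
PHLDA1 (minus strand, chr12:76031834-76031891): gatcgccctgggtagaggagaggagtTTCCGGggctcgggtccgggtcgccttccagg
SPRY2 (minus strand, chr13:80341237-80341294): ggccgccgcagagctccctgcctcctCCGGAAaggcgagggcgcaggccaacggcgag
The *DUSP1* window holds the palindromic cAMP response element TGACGTCA, whose first base lies 125 bases before the start. This element was found in 1 of the 6 genes and in 1.85% of 35116 promoters of the same length. The ETS core CCGGAA was found on either strand in 2 of the 6 genes, *SPRY2* on the same strand and *PHLDA1* on the opposite strand, and in 17.2% of all promoters. The AP-1 site TGANTCA (7.71% of promoters) and the serum response element of FOS (0.0342% of promoters), were found in none of the 6 windows. These matches are letters in a window and were not tested for binding in DU145.

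Values are FPKM (fragments counted per kilobase of transcript length, scaled to library size), as the authors deposited them and summed here over the RefSeq transcripts of each gene. The depth implied by the confidence bounds in the tables was 32.2 to 40.2 M fragments per library. In the label check, *FZD6* ranged from 20.0 to 20.9 FPKM with scramble, from 9.47 to 10.2 FPKM with shRNA1 and from 7.69 to 8.79 FPKM with shRNA2, and its log2 difference between the 6 knockdown and the 3 scramble libraries was −1.12 (limma adjusted p = 0.00049). The epithelial markers *KRT8*, *KRT18*, *KRT19*, *EPCAM* and *CDH1* summed to 665 to 728 FPKM in every library. *KRT19* (log2 difference 0.15, limma adjusted p = 0.00793) and *EPCAM* (17.6 to 21.4 FPKM on average, 0.26, limma adjusted p = 0.0173) rose in the knockdown libraries, *CDH1* fell (4.68 to 3.68 FPKM, −0.28, limma adjusted p = 0.0104), and *KRT8* and *KRT18* did not pass the test. With the trend in transcript length described below removed, 0 of the 5 epithelial markers were called higher and 1 was called lower. Of 6 markers of other cell types, *PTPRC* was at 0 in all 9 libraries and the 5 other than *CD68* summed to 0.312 to 0.459 FPKM. *CD68* rose by 0.42 on the log2 scale in the knockdown libraries (limma adjusted p = 0.00503), so that the list of 6 summed to 17.2 to 18.5 FPKM with scramble, 21.6 to 23.3 FPKM with shRNA1 and 25.4 to 26.1 FPKM with shRNA2. *CD68*, *KRT19* and *EPCAM* moved in the same direction as the genes below and *CDH1* in the opposite one, and their part in the values was not tested. In bulk RNA a change in the number of cells of one kind and a change in RNA per cell cannot be told apart.

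In hg38 the genes lie on chromosomes 5 (*DUSP1* and *SPRY4*), 12 (*DUSP6* and *PHLDA1*), 8 (*DUSP4*), 10 (*DUSP5*), 13 (*SPRY2*), 15 (*SPRED1*), 17 (*ETV4*) and 3 (*ETV5*). Among those the results turn on, the tables place *ETV4* at chr17:43527846-43546340, *DUSP5* at chr10:110497907-110511533, *DUSP6* at chr12:89347235-89352501 and *PHLDA1* at chr12:76025447-76031776, with *DUSP5* on the plus strand and the others on the minus strand. In scramble cells the 10 genes spanned a wide range of levels. *DUSP1* was highest at a mean of 32.0 ± 0.222 FPKM (SD, n = 3), followed by *PHLDA1* (29.4 ± 0.406), *DUSP5* (21.4 ± 0.717), *ETV5* (16.0 ± 0.216) and *ETV4* (11.8 ± 0.689). *SPRY2* (7.14 ± 0.283 FPKM), *SPRED1* (4.11 ± 0.272), *DUSP6* (3.13 ± 0.266), *DUSP4* (1.81 ± 0.0572) and *SPRY4* (0.607 ± 0.0481) were lower. *DUSP1* stood above 78.9% of the 12509 tested genes and *DUSP6* above 20.8%. The order of the means was the same in all 3 groups. Neighbours in this order did not overlap in scramble, whereas *SPRED1* and *DUSP6* overlapped with shRNA1, and *DUSP1* with *PHLDA1* and *DUSP5* with *ETV5* overlapped with shRNA2.

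**Figure D1:**
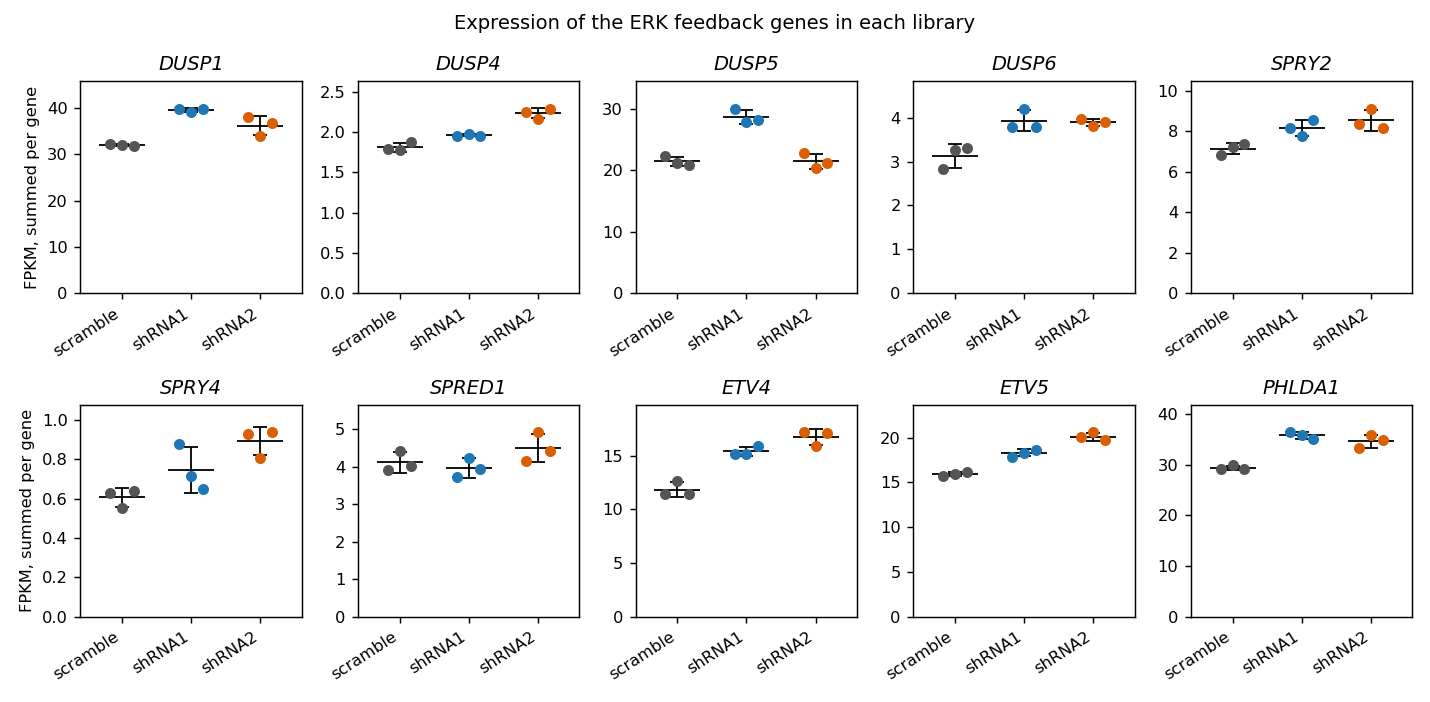
FPKM of each of the 10 genes (vertical axes, each starting at 0) in the 9 libraries, grouped by hairpin. Points are libraries, and the bars show the group mean and the SD (n = 3). In 8 genes every library with an *FZD6* hairpin sat above every scramble library, and the exceptions were *DUSP5* and *SPRED1*.

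Of the 9 genes that averaged 1 FPKM or more, which were tested by limma on log2(FPKM + 1) among 12509 genes, 6 rose in the 6 knockdown libraries against the 3 scramble libraries and 0 fell. Of all tested genes 13.5% were called higher and 7.10% lower. The genes that rose were *DUSP1*, *DUSP6*, *SPRY2*, *ETV4*, *ETV5* and *PHLDA1*, and those that did not pass the test were *DUSP4*, *DUSP5* and *SPRED1*. The median log2 difference of the 9 was 0.23, beside 0.03 for all tested genes. Across all 10 genes, 8 had every knockdown library above every scramble library, which was the case for 16.4% of tested genes. The changes were modest in size, with means of the 10 genes between 2.82% and 35.7% higher on the FPKM scale. The criteria of the study, an unadjusted p under 0.01 with at least a 1.2-fold change, were also applied here to the summed FPKM of the tested genes. With the fold taken on log2(FPKM + 1), *ETV4* was the 1 gene of the set that was called, beside 1.10% of tested genes called higher. With the fold taken as the ratio of mean FPKM, a scale tried after seeing the data, 3 were called, *ETV4* (1.36-fold), *DUSP6* (1.25-fold) and *ETV5* (1.202-fold), beside 1.77% of tested genes called higher. *PHLDA1*, at 1.197-fold, lay just under the limit.

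Among the phosphatases, *DUSP1* removes phosphate from p38, JNK and ERK in the nucleus and is itself an immediate early gene. Its FPKM was 32.3, 31.9 and 31.9 with scramble, 39.8, 39.1 and 39.8 with shRNA1 and 38.0, 33.9 and 36.7 with shRNA2. Every knockdown library was thus higher than the scramble libraries, and the spread was widest with shRNA2. The log2 difference of knockdown from scramble was 0.23 (standard error 0.0509, limma adjusted p = 0.0153). The call rests on all 3 scramble libraries, since the limma adjusted p was 0.0539, 0.0623 and 0.0533 without scramble replicate 1, 2 and 3, with differences of 0.23 to 0.24.

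*DUSP6*, a cytoplasmic phosphatase specific for ERK and a widely used transcript readout of ERK activity, was at 2.82, 3.26 and 3.30 FPKM with scramble. It was at 3.78, 4.20 and 3.79 FPKM with shRNA1 and at 3.98, 3.80 and 3.90 FPKM with shRNA2. The groups of knockdown libraries overlapped each other and stood apart from scramble. The log2 difference was 0.25 (standard error 0.0452, limma adjusted p = 0.00794), and the mean FPKM was 25.0% higher.

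*DUSP4*, a nuclear phosphatase, was expressed at a low level of 1.79, 1.77 and 1.88 FPKM with scramble, 1.95, 1.97 and 1.95 FPKM with shRNA1 and 2.25, 2.17 and 2.29 FPKM with shRNA2. The 3 groups did not overlap, with shRNA2 the highest. Over the 6 knockdown libraries its log2 difference of 0.14 (standard error 0.0447) did not pass the threshold (limma adjusted p = 0.0587).

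*DUSP5*, a nuclear phosphatase specific for ERK, did not follow the others. It was at 22.3, 21.2 and 20.9 FPKM with scramble and at 30.0, 27.8 and 28.2 FPKM with shRNA1, but at 22.8, 20.4 and 21.2 FPKM with shRNA2. The shRNA2 libraries lay within and around the scramble libraries while the shRNA1 libraries stood above both. The difference of all knockdown libraries from scramble did not pass the test (log2 difference 0.20, standard error 0.125, limma adjusted p = 0.285). The pseudogene *DUSP5P1*, which resembles *DUSP5*, was listed at 0.0899 to 0.273 FPKM.

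*SPRY2*, a Sprouty protein that restrains receptor signalling to RAS, was at 6.83, 7.24 and 7.37 FPKM with scramble, 8.16, 7.75 and 8.56 FPKM with shRNA1 and 8.36, 9.12 and 8.15 FPKM with shRNA2. Knockdown libraries were all higher, although the lowest of them exceeded the highest scramble library by little. The log2 difference was 0.20 (standard error 0.0458, limma adjusted p = 0.0191). Without scramble replicate 1 or 2 the gene was no longer called, at a limma adjusted p of 0.0834 and 0.062.

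*SPRY4*, another Sprouty gene and a sensitive target of ERK, was too low to be tested under the filter, with a mean of 0.748 FPKM over the 9 libraries. Its values were 0.629, 0.552 and 0.640 FPKM with scramble, 0.876, 0.715 and 0.647 FPKM with shRNA1 and 0.926, 0.809 and 0.936 FPKM with shRNA2. The shRNA2 libraries stood clear of scramble, whereas 1 shRNA1 library was barely above it. The antisense gene *SPRY4-AS1* was listed at 0.119 to 0.618 FPKM. Whether counting used strand is not known, and its part in the *SPRY4* values was not tested. With no filter on low values the log2 difference of knockdown was 0.18 (standard error 0.0557, limma adjusted p = 0.0882), a value that the added 1 FPKM makes smaller than the 34.9% difference in mean FPKM. In that fit shRNA2 was called against scramble (log2 difference 0.23, limma adjusted p = 0.0277) and shRNA1 was not (0.12, limma adjusted p = 0.233).

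*SPRED1*, which brings the RAS inhibitor neurofibromin to the membrane, was at 3.91, 4.42 and 4.01 FPKM with scramble, 3.72, 4.24 and 3.93 FPKM with shRNA1 and 4.16, 4.91 and 4.42 FPKM with shRNA2. All 3 groups overlapped. Its log2 difference was 0.03 with a 95% confidence interval of −0.13 to 0.19 (limma adjusted p = 0.787).

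*ETV4*, an ETS factor of the PEA3 group that ERK signalling induces and that gene fusions activate in some prostate cancers, showed the largest difference of the set. Its FPKM was 11.5, 12.6 and 11.4 with scramble, 15.2, 15.1 and 15.9 with shRNA1 and 17.2, 15.9 and 17.1 with shRNA2. All knockdown libraries lay well above scramble. The mean was 35.7% higher with knockdown, a log2 difference of 0.41 (standard error 0.0517, limma adjusted p = 0.00266). The tables list 8 RefSeq transcripts of *ETV4*, and the most abundant on average, NM_001261438, held from 25.1% to 63.0% of the gene's FPKM in a library. Because reads of these transcripts are split by estimation, the gene sum is the value reported for *ETV4*.

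*ETV5*, the PEA3-group paralog of *ETV4*, has 1 RefSeq transcript in the tables. It was at 15.7, 16.0 and 16.2 FPKM with scramble, 17.9, 18.3 and 18.7 FPKM with shRNA1 and 20.0, 20.6 and 19.7 FPKM with shRNA2. The 3 groups did not overlap, with scramble the lowest and shRNA2 the highest. The log2 difference of knockdown was 0.25 (standard error 0.0454, limma adjusted p = 0.00832). *ETV1*, the remaining factor of the group, was at or below 0.00452 FPKM.

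*PHLDA1*, a pleckstrin homology-like domain protein induced by growth factors and by stress, was at 29.2, 29.9 and 29.2 FPKM with scramble. It was at 36.4, 35.9 and 35.0 FPKM with shRNA1 and at 33.2, 35.8 and 34.8 FPKM with shRNA2. The *FZD6* hairpins overlapped with each other, and neither overlapped with scramble. The log2 difference was 0.25 (standard error 0.0317, limma adjusted p = 0.00266).

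The hairpins were then compared one at a time, in a model with 3 groups. Both comparisons use the same 3 scramble libraries, so their values are given side by side and are not independent. With shRNA1, 6 of the 9 tested genes rose and 0 fell (11.7% of all tested genes were called higher and 7.19% lower). With shRNA2, 7 rose and 0 fell (15.3% of all tested genes were called higher and 11.4% lower). The log2 differences with shRNA1 and shRNA2 were 0.30 and 0.17 for *DUSP1*, 0.26 and 0.25 for *DUSP6*, 0.27 and 0.23 for *PHLDA1*, 0.35 and 0.47 for *ETV4*, and 0.18 and 0.31 for *ETV5*, and all of these passed the test. *SPRY2* had 0.17 with shRNA1 (limma adjusted p = 0.0558) and 0.23 with shRNA2 (limma adjusted p = 0.0156). *DUSP5* was called with shRNA1, at 0.40 (limma adjusted p = 0.00423), and *DUSP4* with shRNA2, at 0.20 (limma adjusted p = 0.00236). The calls of *DUSP1* and *SPRY2* with shRNA2 and of *DUSP6* with shRNA1 depended on single libraries. *DUSP1* with shRNA2 was at a limma adjusted p of 0.0516, 0.0608 and 0.0573 without scramble replicate 1, 2 and 3 and of 0.0609 without shRNA2 replicate 3. *SPRY2* with shRNA2 was at 0.0533 (limma adjusted p) without scramble replicate 1. *DUSP6* with shRNA1 was at a limma adjusted p of 0.0612 and 0.0509 without shRNA1 replicate 2 and 3.

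**Figure D2:**
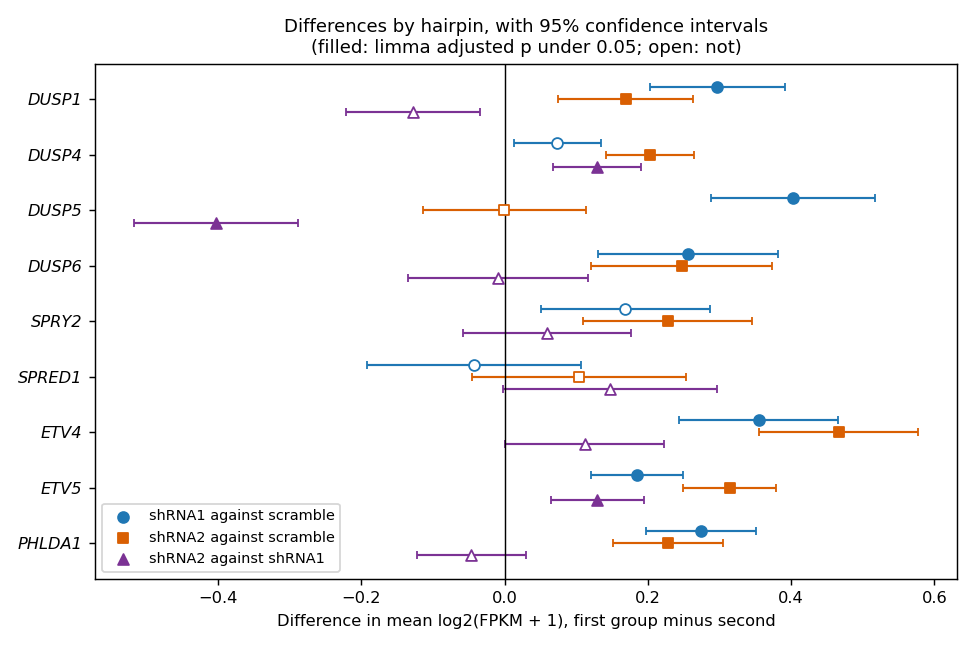
Difference in mean log2(FPKM + 1) (horizontal axis) for the 9 tested genes, for each *FZD6* hairpin against scramble and for shRNA2 against shRNA1. Bars are 95% confidence intervals, and filled symbols passed the limma threshold. *DUSP5* stands out with 0.40 for shRNA1, 0.00 for shRNA2 and −0.40 between the hairpins.

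Direct comparison of shRNA2 with shRNA1 asks whether the hairpins differ. In it 3 of the 9 genes were called, 2 higher with shRNA2 (1.92% of all tested genes) and 1 lower (4.79% of all tested genes). *DUSP5* was 25.2% lower with shRNA2 than with shRNA1 (log2 difference −0.40, standard error 0.0491, limma adjusted p = 0.00425), and it stayed called in all 17 alternative fits. *DUSP4* and *ETV5* were each higher with shRNA2 by 0.13, at limma adjusted p of 0.0294 and 0.0356. Neither of the latter calls is firm. *DUSP4* was no longer called without any one of shRNA1 replicates 1, 2 and 3 and shRNA2 replicates 1 and 3 (limma adjusted p of 0.0695 to 0.101). *ETV5* was no longer called without any one of the scramble or shRNA1 libraries or shRNA2 replicate 1 (limma adjusted p of 0.0548 to 0.116). *DUSP6* differed between the hairpins by −0.01 with a 95% confidence interval of −0.14 to 0.12, and *PHLDA1* by −0.05 with an interval of −0.12 to 0.03. The hairpins also differed in the remaining *FZD6* RNA, which fell by 17.5% from shRNA1 to shRNA2 (limma adjusted p = 0.0273).

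The other genes of the pathway, from 6 lists, were read beside the set in the comparison of knockdown with scramble. Of the paralogs of the members *ETS2* passed the test, where 13.5% of all tested genes were called higher and 7.10% lower. The lists of paralogs are too small for their counts to be set apart from those shares. Of 5 tested MAP kinase phosphatases outside the set, 0 passed the test, with a median log2 difference of −0.03, and *DUSP8* was nearest at 0.13 (limma adjusted p = 0.0521). With shRNA2 alone *DUSP8* was called higher, at a mean of 1.57 FPKM against 1.31 FPKM with scramble, beside 15.3% of all tested genes. With shRNA1 alone 0 of the 5 passed. *DUSP9*, *DUSP7* and *DUSP16* had differences of −0.11, −0.03 and −0.03. *DUSP10* had a pattern across hairpins in the same direction as *DUSP5*, with means of 1.66 FPKM with scramble, 2.20 FPKM with shRNA1 and 1.45 FPKM with shRNA2, and its difference between the hairpins of −0.39 did not pass the threshold (limma adjusted p = 0.0532). Of 4 Sprouty and SPRED genes outside the set, *SPRED2* and *SPRED3* could be tested and neither passed, at −0.09 and 0.09. *SPRED2* was lower with shRNA1 against scramble (−0.20, limma adjusted p = 0.00644) and was at 0.02 with shRNA2, and the hairpins differed by 0.22 (limma adjusted p = 0.00547). Of 7 tested ETS factors outside the set, *ETS2* rose, by 0.12 (limma adjusted p = 0.0109), and the median of the 7 was −0.01.

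Among 15 tested genes that are also known to rise with ERK activity, 9 rose and 0 fell, with a median of 0.21. Of all tested genes 13.5% were called higher. *FOSL1*, an AP-1 subunit stabilised by ERK, went from a mean of 98.2 ± 3.05 FPKM with scramble to 140.0 ± 1.57 FPKM with shRNA1 and 128 ± 7.25 FPKM with shRNA2 (SD, n = 3; log2 difference of knockdown 0.44, limma adjusted p = 0.00253). *IER3*, an immediate early gene, rose by 0.37 on the log2 scale and *AREG*, a ligand of the EGF receptor, by 0.29 (limma adjusted p of 0.00229 and 0.00489). The others that rose were *CCND1*, *EPHA2*, *HBEGF*, *LIF*, *PLAUR* and *KLF10*. Those that did not pass the test were *EGR1*, *MYC*, *EMP1*, *EREG*, *TRIB1* and *PHLDA2*. *EPHA4* was too low to be tested, at a mean of 0.496 FPKM with scramble and 0.432 FPKM with knockdown.

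Of 22 tested genes of the cascade itself, from receptor adaptor to RSK kinase, 0 rose and 3 fell, with a median of −0.05. Of all tested genes 13.5% were called higher and 7.10% lower. Those that fell were the RSK kinase gene *RPS6KA2* (−0.24), the scaffold gene *KSR1* (−0.19) and the adaptor gene *SHC1* (−0.13). Their limma adjusted p were 0.00401, 0.00657 and 0.0483. With the trend in transcript length described below removed, *RPS6KA2* was the 1 still called (limma adjusted p = 0.00892), and *KSR1* and *SHC1* were at 0.189 and 0.0584 (limma adjusted p). Of 9 other brakes on RAS signalling, 0 rose and 2 fell, with a median of −0.17. They were the RAS GTPase-activating proteins *RASA3* (−0.31, limma adjusted p = 0.0445) and *DAB2IP* (−0.29, limma adjusted p = 0.00309), beside the same 7.10% of all tested genes. With the length trend removed *DAB2IP* was still called (limma adjusted p = 0.00505) and *RASA3* was not (limma adjusted p = 0.0679). The median of the 9 was then −0.14 in knockdown, beside 0.00 for all genes with a length. By hairpin that median went from −0.11 to −0.08 with shRNA1 and from −0.21 to −0.06 with shRNA2. The 9 include *LRIG1* and *ERRFI1*, which act on receptors and of which *ERRFI1* is itself induced by ERK. *ERRFI1* was lower with shRNA2 against scramble (−0.31, limma adjusted p = 0.00265) and was at 0.06 with shRNA1. Of the 9 brakes, 3 were called lower with shRNA1 (*RASA3*, *DAB2IP* and *CBL*), beside 7.19% of all tested genes. With shRNA2, 4 were called lower (*RASA1*, *RASA3*, *DAB2IP* and *ERRFI1*), beside 11.4%.

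**Figure D3:**
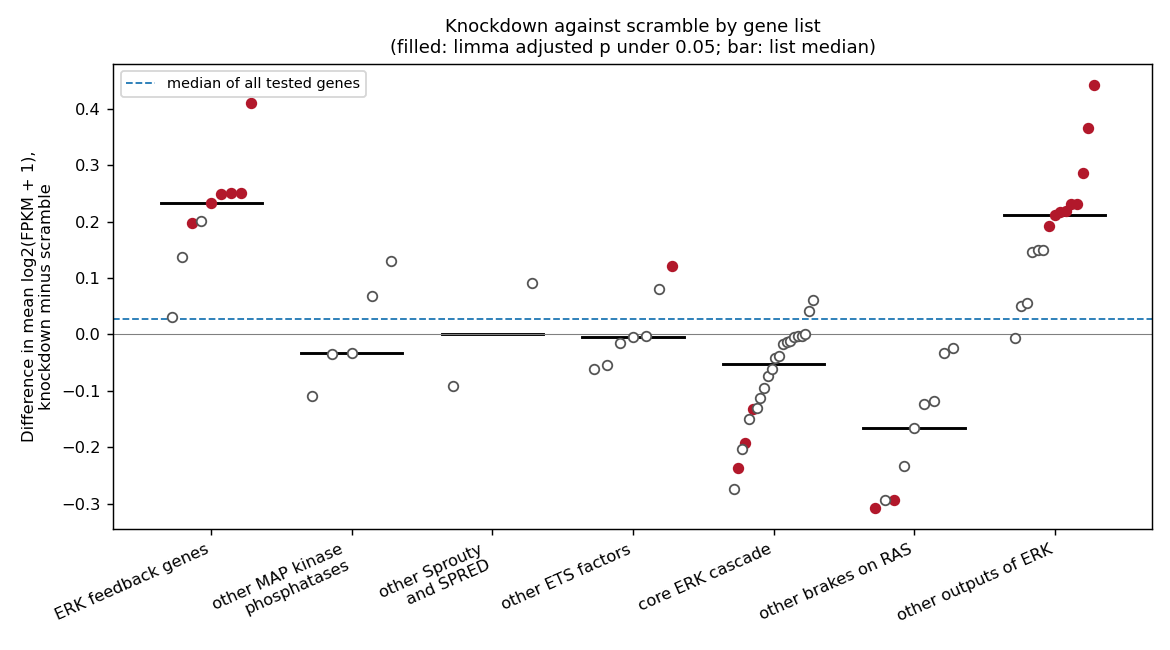
Difference in mean log2(FPKM + 1) of knockdown from scramble (vertical axis) for each tested gene of the set and of 6 lists of other pathway genes. Filled points passed the limma threshold, black bars are list medians and the dashed line is the median of all tested genes (0.03). The set (median 0.23) and the other outputs of ERK (median 0.21) lie above that line, and the brakes on RAS (median −0.17) lie below it. The trend in transcript length was not removed from these values.

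Transcript length moved with the difference across all genes and is therefore given for the set. Across 12092 tested genes with a known length, Spearman's rho between length and the log2 difference of knockdown was −0.445, as a description across genes, which are not independent replicates. The median difference was 0.12 for transcripts under 1000 bases, 0.03 for 2000 to 4000 bases and −0.10 for over 6000 bases. The members' lengths ranged from 2019 bases for *DUSP1* to 7780 bases for *SPRED1*. *PHLDA1* (5913 bases), *DUSP6* (4400 bases) and *ETV5* (4111 bases) are long transcripts with differences of 0.25. With each library's trend in length removed, 6 of the 9 genes were called higher in knockdown, beside 6.62% of the 12092 genes called higher and 5.70% lower. *PHLDA1* was then at 0.31, *ETV4* at 0.35, *DUSP6* at 0.27, *ETV5* at 0.26 and *DUSP1* at 0.17. *DUSP4* passed the threshold in that fit (0.19, limma adjusted p = 0.0496) and *SPRY2* did not (0.14, limma adjusted p = 0.0905). The median of the 9 was 0.19, beside 0.00 for all genes with a length. By hairpin, 6 members were called higher with shRNA1 in that fit (6.14% of all genes with a length) and 7 with shRNA2 (11.4%). With shRNA2 the call of *DUSP1* was lost (0.11, limma adjusted p = 0.0589) and *SPRED1* passed the threshold (0.20, limma adjusted p = 0.0220). Between the hairpins the call of *DUSP4* was lost (limma adjusted p = 0.115), whereas *DUSP5* and *ETV5* were still called. Of the lists, 8 of the other outputs of ERK were called higher in knockdown in that fit, and *DUSP9* was called lower (−0.15, limma adjusted p = 0.0341).

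**Figure D4:**
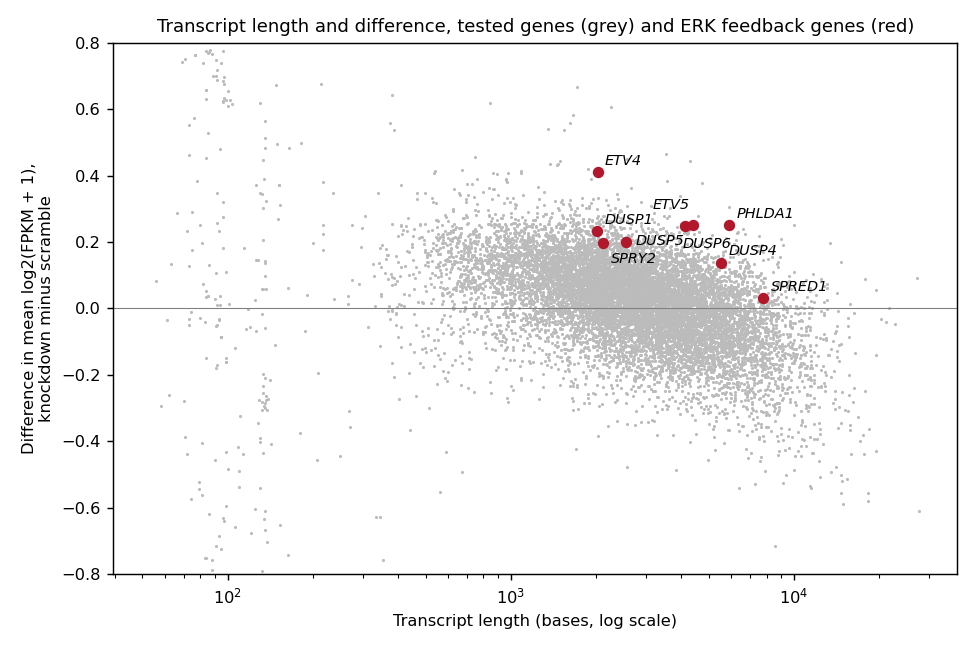
Transcript length in bases (horizontal log axis) and the difference in mean log2(FPKM + 1) of knockdown from scramble (vertical axis) for 12092 tested genes (grey) and the 9 tested genes of the set (red). The axis ends at 0.8 in both directions, which leaves out 257 genes. The grey cloud slopes down with length, and *DUSP6*, *ETV5* and *PHLDA1* lie at 0.25 at lengths where the cloud centres near or below 0.

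The members also differ in the AU-rich sequences that mark RNAs for rapid decay. In the 3′ untranslated region of the leading transcript (GENCODE v29), ATTTA was counted 4 times in the 672 bases of *DUSP1*, 14 times in the 4672 bases of *PHLDA1* and 24 times in the 5585 bases of *SPRED1*. *DUSP5* and *ETV4* had 0, in 1118 and 675 bases. The median gene of 10885 had 1, and the median length of the region was 943 bases. The counts of *PHLDA1* and *SPRED1* thus come from regions far longer than the median. Per kilobase, *DUSP1* stood above 93.8% of the 10885 genes, *SPRED1* above 86.1% and *PHLDA1* above 72.9%. *SPRY4* and *DUSP6* stood above 38.9% and 34.7%. The nonamer TTATTTATT was present in 3 of the 10 genes (*DUSP1*, *DUSP4* and *PHLDA1*) and in 7.37% of the 10885 genes.

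Genes with the most similar pattern over the 9 libraries were found by Pearson's r of log2(FPKM + 1), as a description in which all genes share the same libraries and groups. For *PHLDA1* they were *ATF3* (r = 0.994), *EIF2A* (r = 0.990) and *LCMT2* (r = 0.990). For *ETV4* they were *APEH*, *TRIB3* and *MRPL48* (r = 0.977 to 0.980), and for *DUSP6* they were *DNAAF5*, *ANXA7* and *RNF114* (r = 0.968 to 0.970). For *SPRY4* they were *PSMC3IP*, *RPL29P2* and *UCK2* (r = 0.962 to 0.974). No member was among the 3 genes nearest to any of these 4. Within the set *ETV4* was closest to *ETV5* (r = 0.933, rank 137 of 12508), *DUSP6* to *ETV4* (r = 0.870, rank 306) and *SPRY4* to *DUSP4* (r = 0.884, rank 104). With the 4 genes examined, *DUSP5* had r between 0.0878 with *SPRY4* and 0.559 with *PHLDA1*, and *SPRED1* between 0.122 with *SPRY4* and 0.284 with *ETV4*.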

How the data were processed

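The members and the lists were chosen with earlier results of these data known. According to the methods and labels, stranded mRNA libraries (TruSeq) were mapped with STAR and the authors calculated FPKM per RefSeq transcript with Cufflinks. The build is hg38 in the labels, although the methods name mm10, and versions are not given in the sources used here, nor is whether counting used strand. These values already account for depth and for the length of each transcript, and no counts come with them. Depth was inferred from the bounds that Cufflinks gave for genes with a single entry, on the assumption that the bounds are 2 standard errors wide on each side.

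RefSeq accessions were paired with symbols through a table of GRCh38.p14 (72645 of 73240 matched), and FPKM were summed per gene, leaving out 42 genes with an unusable status. The 12509 genes that averaged 1 FPKM or more were tested as log2(FPKM + 1) with limma (version 3.58.1, under R 4.3.3), p-values being adjusted over all of them by Benjamini and Hochberg's method to a threshold of 0.05. Knockdown (6 libraries) was compared with scramble (3), and hairpins as contrasts in a model with 3 groups. Fold changes on this scale understate those of low genes. Lengths and 3′ untranslated regions came from GENCODE v29, since the length column of the tables is empty. The fits were tested on simulated data. Genes named are all members, *FZD6*, the called genes with the largest differences of each list (at most 3 in each direction) and the 3 genes with the highest r to *DUSP6*, *SPRY4*, *ETV4* and *PHLDA1*. Other genes, such as *DUSP8*, *DUSP10*, *SPRED2* and *ERRFI1*, were named after their values were seen. Alternatives were a pseudocount of 0.1, a filter at 5 FPKM or none, median centring of libraries, quantile normalization, the length trend removed (lowess, span 0.3), the replicate number as a block, each library left out, fewer libraries in the fit, the study's criteria and each transcript alone. No filter together with a pseudocount of 0.1, and the study's criteria with the fold of mean FPKM, were added after seeing the data. Python 3.11.15 with numpy 2.4.6, pandas 2.3.3 and matplotlib 3.10.9 made the tables and plots. Guide sequences, proteins and the promoter of *DUSP4* were not used here, and some listed genes are not reported here.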

Additional observations from a re-analysis of the deposited data

Results flagged for a closer look

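A difference between the hairpins themselves, tested as shRNA2 minus shRNA1 in limma, was past the threshold for 3 members, with log2 differences of −0.40 for *DUSP5*, 0.13 for *DUSP4* and 0.13 for *ETV5*. Outside the set, *RASA3* (−0.29), *ERRFI1* (−0.37), *GRB2* (−0.10) and the marker *KRT8* (−0.18) were lower with shRNA2, as was the targeted gene *FZD6* (−0.25). *SPRED2* (0.22), *NRAS* (0.14), *CCND1* (0.13) and the marker *CD68* (0.20) were higher with shRNA2. In the FPKM of the 10 members and of *FZD6*, no library stood apart from the other 5 knockdown libraries, where about 0.55 of these 11 genes would show one by chance.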

How the results depend on the processing

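The counts of members called against scramble ranged from 4 to 6 for knockdown, 5 to 8 for shRNA1 and 5 to 7 for shRNA2 when 1 library was left out, and 0 members fell. Between the hairpins the count of 3 ranged from 1 to 3. It was 1 with only the 6 libraries compared, where the 1 called was *DUSP5*, and the study's criteria left 1 in knockdown, or 3 with the fold taken as the ratio of mean FPKM. The calls of all tested genes in knockdown, 2578, went from 997 without scramble replicate 2 to 3255 without shRNA2 replicate 2, were 1181 and 1520 without scramble replicates 1 and 3, 1489 with the length trend removed and 416 with transcripts tested alone. The deviations of libraries with the same replicate number had r of −0.0710 to 0.111, and those with unlike numbers −0.123 to 0.184. With so few libraries these values cannot decide whether the numbers pair the libraries. With the replicate block the counts of members were 6, 6, 8 and 3, and *SPRED1* gained a call with shRNA2 (limma adjusted p = 0.0286) and between the hairpins (0.03, limma adjusted p), while *ETV5* lost its call between the hairpins (limma adjusted p = 0.0547).

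Of the values of single members, 578 kept their direction and their side of the threshold, 52 fell short of it, 8 passed it and 14 changed sign. None of these 14 passed the threshold. *SPRED1* changed sign with shRNA1 when the length trend was removed (0.0656), and in knockdown its values without 1 library ran from −0.00617 without shRNA2 replicate 2 to 0.0730 without scramble replicate 2. *DUSP5* with shRNA2 ran from −0.0431 without shRNA2 replicate 1 to 0.0339 without shRNA2 replicate 2, and was also above 0 without scramble replicate 1 and without shRNA2 replicate 3. *DUSP6* between the hairpins ran from −0.0306 without shRNA1 replicate 1 to 0.0309 without shRNA1 replicate 2, and was also above 0 without shRNA2 replicate 2. *ETV4* changed sign in transcripts taken alone: NM_001261437 was at −0.88 in knockdown, −0.70 with shRNA1, −1.06 with shRNA2 and −0.35 between the hairpins, and NM_001986 at −0.59, −1.07 and −0.10 against scramble, while NM_001261438 was at 0.97 in knockdown (limma adjusted p = 0.0168). With transcripts taken alone *DUSP1*, *DUSP6*, *ETV5* and *SPRY2* had limma adjusted p of 0.0523 to 0.0768 in knockdown, in a fit of 20600 transcripts. The cause of these changes was not tested.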
